A study of Acidomyces sp. 'richmondensis' with 12 samples.

Results

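The genes described here are 35 of the 10043 genes measured in mycelium of the acid-loving fungus Acidomyces richmondensis MEY-1. They are the genes that were at least 2-fold higher with copper than without it in the wild type, and that with the same treatment were little higher, level or lower in a strain lacking the gene ArAceA. Their levels were measured by RNA sequencing in 4 groups of 3 libraries, each library from its own culture: ∆ArAceA with 15 mM CuCl2, ∆ArAceA without CuCl2, WT with 15 mM CuCl2 and WT without CuCl2. All cultures were grown for 4 days, washed, moved to fresh medium and sampled 6 h later, so that the copper-free groups also went through the transfer. ∆ArAceA carries a deletion of ArAceA in MEY-1. How many independent deletion strains were used is not given in the sources used here, so a difference between the genotypes is a difference between these strains.

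The name ArAceA follows that of AceA in the mould Aspergillus fumigatus, where this transcription factor senses surplus copper and is needed for expression of the copper-exporting P-type ATPase CrpA. In Saccharomyces cerevisiae the related factor Ace1 binds copper ions and then activates metallothionein genes, whose small cysteine-rich products hold copper away from the rest of the cell. Export and sequestration of this kind are the classical fungal defences against surplus copper. The design asks which responses to copper differ once ArAceA is missing. The files give the genes by locus identifiers and pair none of them with a gene name or product, so no function is given below, and the level of ArAceA itself was not checked.

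Levels are given in FPKM, the fragments assigned to a gene per kilobase of its transcript, scaled by the authors to the size of the library. FPKM sums per library ran from 884111 to 926713. Read numbers are unknown, which leaves the counting error of low values unknown as well. Members were chosen from group means on the log2(FPKM + 1) scale. The copper response of a genotype is the log2 value with copper minus the log2 value without it. A member had a response of at least 1 in WT and under 0.7 in ∆ArAceA, its highest group mean was at least 5 FPKM, and its mean over the 12 libraries was under 1000 FPKM. These responses chose the members, so they are given as a description with no test. Another 13 genes had responses in the same ranges but failed the level conditions, all of them because no group mean reached 5 FPKM.

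**Figure D1:**
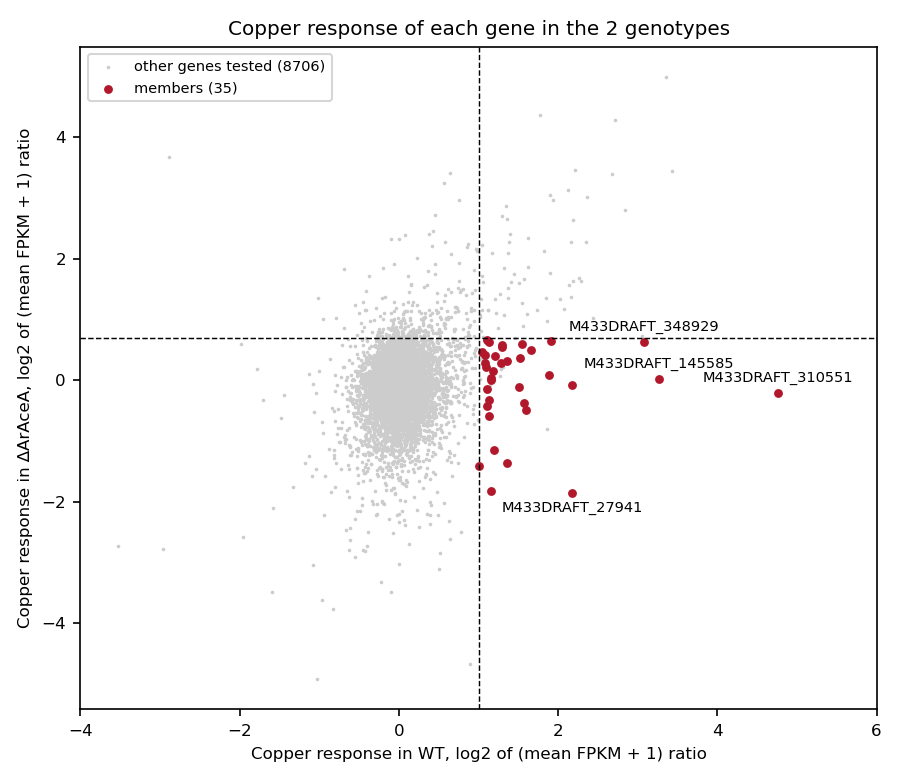
Copper response of every gene tested in WT (horizontal) and in ∆ArAceA (vertical), as log2 ratios of mean FPKM + 1 with copper over without copper, n = 3 libraries per group. Dashed lines stand at the limits of 1 and 0.7 that chose the 35 members (red). M433DRAFT_310551 lies farthest to the right, at 4.76 in WT, and members spread from -1.86 to 0.66 in ∆ArAceA.

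The responses of the members in WT ran from 1.001 to 4.76 with a median of 1.29, and those in ∆ArAceA from -1.86 to 0.66 with a median of 0.096. The median over the 8741 genes that passed a filter on low values was -0.011 in WT and -0.041 in ∆ArAceA. In WT 3 members had a response of at least 3, a further 2 lay between 2 and 3, 8 lay between 1.5 and 2, 6 lay between 1.2 and 1.5, and 16 had less than 1.2. In ∆ArAceA 21 members had a response above 0 and 14 below 0, and 5 lay below -1. At the limit in WT, M433DRAFT_151605 was just inside with 1.001 and M433DRAFT_149654 just outside with 0.99. At the limit in ∆ArAceA, M433DRAFT_166471 was inside with 0.66 and M433DRAFT_170966 outside with 0.71. At the limit on level, the highest group mean was 5.09 FPKM for M433DRAFT_464175 inside and 3.75 FPKM for M433DRAFT_130325 outside, while the highest mean over 12 libraries was 822 FPKM, in M433DRAFT_71428, under the limit of 1000 FPKM.

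A lower response in ∆ArAceA did not mean a flat one. In 34 members all 3 WT libraries with copper lay above all 3 without copper, and in ∆ArAceA the libraries with copper lay above those without in 16 members, below them in 9, and overlapped with them in 10. Over the genes tested, 16.4% had non-overlapping groups with copper higher in WT, 28.9% with copper higher in ∆ArAceA and 36.1% with copper lower in ∆ArAceA, and since the rule used these contrasts nothing is read from the members' counts. Copper-treated WT was the group with the highest mean for 22 members, ∆ArAceA without copper for 7 and ∆ArAceA with copper for 6. Summed over the 35 members, transcripts made up 0.380 ± 0.0126% and 0.395 ± 0.0178% of a library's FPKM in ∆ArAceA with and without copper, against 0.623 ± 0.0104% and 0.215 ± 0.0276% in WT with and without copper (mean ± SD, n = 3 libraries, as for all means below). The ∆ArAceA libraries with copper, at 0.372 to 0.395%, overlapped with those without, at 0.375 to 0.409%, and all of them lay between the copper-treated and the copper-free WT libraries. This sum is weighted towards the abundant members. The median member stood at 23.3 and 26.5 FPKM in ∆ArAceA with and without copper, against 24.1 and 9.48 FPKM in WT. By that median, copper-free ∆ArAceA libraries, at 23.6 to 29.0 FPKM, overlapped with copper-treated WT ones, at 19.4 to 27.2 FPKM.

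**Figure D2:**
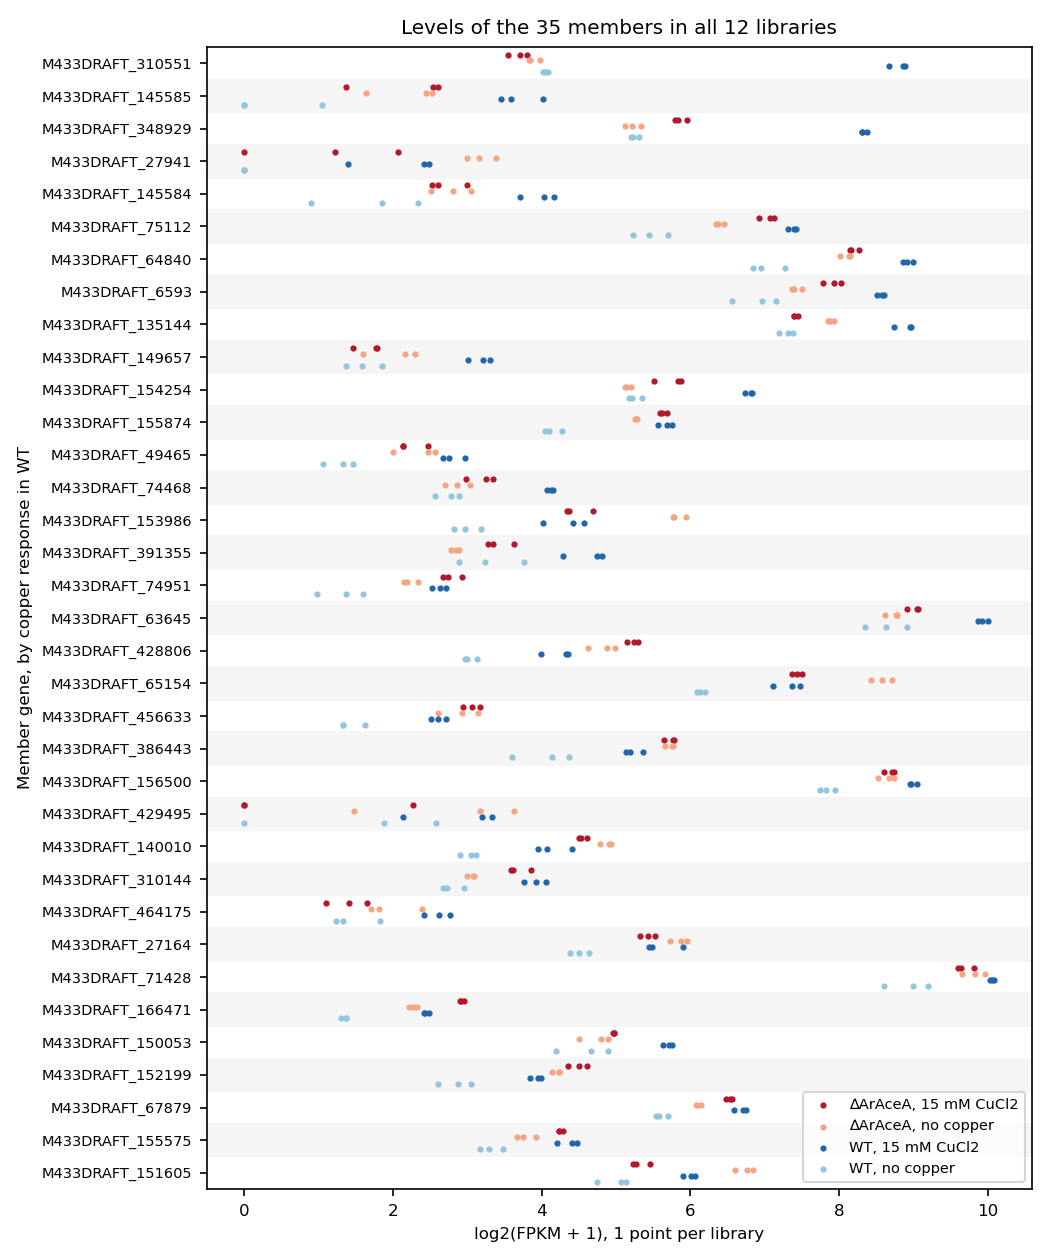
Level of each of the 35 members in each of the 12 libraries, on a log2(FPKM + 1) scale, ordered from the largest to the smallest copper response in WT. Within each row the groups run from ∆ArAceA with copper at the top to WT without copper at the bottom. The row of M433DRAFT_310551 shows the WT copper libraries alone near the right, at 407 to 471 FPKM, while in M433DRAFT_65154 and M433DRAFT_153986 the copper-free ∆ArAceA libraries are the highest.

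Members differed in where the deletion strain stood without copper. Placed on the interval from the WT level without copper (0) to the WT level with copper (1), on the log2 scale, copper-free ∆ArAceA lay under 0.25 for 8 members, from 0.25 to 1 for 16 members and above 1 for 11 members. These 3 classes were drawn after the values were seen and serve only to order the description.

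In the 8 members of the first class the ∆ArAceA level without copper stood near or below the WT copper-free level. M433DRAFT_310551 had 12.9, 10.6 and 12.03 FPKM in ∆ArAceA with copper and 13.4, 14.8 and 13.2 FPKM in ∆ArAceA without copper, against 471, 464 and 407 FPKM in copper-treated WT and 15.2, 15.9 and 15.6 FPKM in copper-free WT. Every value in ∆ArAceA lay below every value in WT, the copper libraries of ∆ArAceA included, and the WT copper mean of 447 ± 35.2 FPKM was 28.7-fold the WT copper-free mean. For M433DRAFT_348929 the ∆ArAceA libraries gave 56.1, 60.98 and 54.5 FPKM with copper and 33.9, 36.1 and 39.5 FPKM without it, whereas the WT libraries gave 316, 316 and 332 FPKM with copper and 35.9, 36.7 and 38.6 FPKM without it. The copper-free libraries of the genotypes overlapped for this gene, and with copper the ∆ArAceA mean was 1.57-fold its copper-free mean, against 8.67-fold in WT. The levels of M433DRAFT_63645 were 481, 528 and 533 FPKM in the ∆ArAceA libraries with copper and 392, 439 and 433.2 FPKM in those without, and 936, 1023 and 969.95 FPKM in the WT libraries with copper and 479.8, 324 and 394 FPKM in those without. This gene is among the 2 most abundant members, and its ∆ArAceA libraries with copper all lay above those without copper, by 1.22-fold between means, but lay well below the WT copper level. M433DRAFT_391355 had 11.3, 9.19 and 8.66 FPKM in ∆ArAceA with copper and 6.19, 5.88 and 6.43 FPKM in ∆ArAceA without copper, against 25.8, 27.2 and 18.6 FPKM in copper-treated WT and 12.5, 6.4 and 8.47 FPKM in copper-free WT. Without copper the ∆ArAceA values overlapped only with the lowest WT value, and with copper the groups of the genotypes did not overlap.

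The other 4 members of this class had WT responses from 1.09 to 1.55. M433DRAFT_154254 averaged 52.7 ± 7.19 and 34.6 ± 1.06 FPKM in ∆ArAceA with and without copper, against 110.1 ± 3.68 FPKM in copper-treated WT and 37.02 ± 2.398 FPKM in copper-free WT. The means of M433DRAFT_74468 were 8.16 ± 1.16 and 6.32 ± 0.832 FPKM with and without copper in ∆ArAceA, and those in WT were 16.3 ± 0.507 FPKM with copper and 5.74 ± 0.768 FPKM without it. M433DRAFT_150053 averaged 30.3 ± 0.166 and 25.8 ± 3.65 FPKM in ∆ArAceA with and without copper, against 50.9 ± 2.18 FPKM in copper-treated WT and 23.4 ± 5.74 FPKM in copper-free WT. In these 3 genes the copper libraries of ∆ArAceA all lay below those of WT, while the copper-free libraries overlapped. The means of M433DRAFT_310144 were 11.9 ± 1.37 and 7.28 ± 0.291 FPKM with and without copper in ∆ArAceA, and those in WT were 14.1 ± 1.54 FPKM with copper and 5.92 ± 0.735 FPKM without it. Its copper libraries overlapped between the genotypes, at -0.23 between the log2 means, and its response in ∆ArAceA, 0.64, was close to the limit of the rule.

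**Figure D3:**
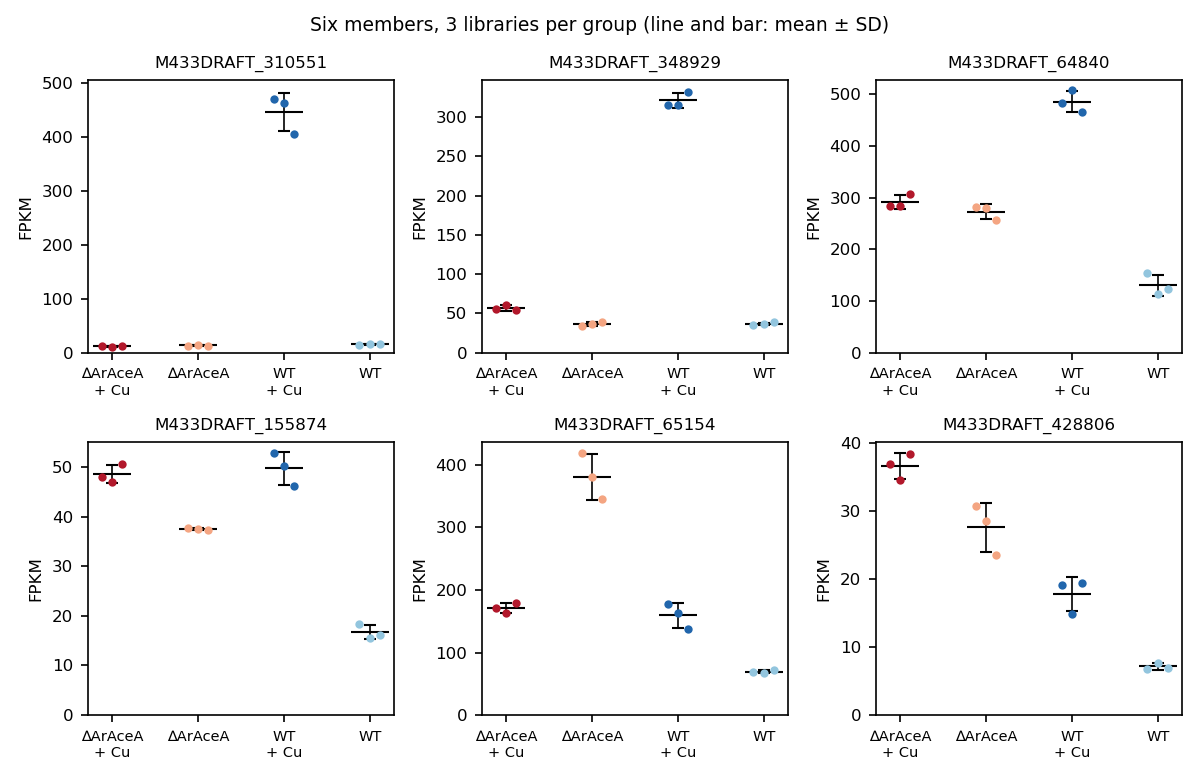
FPKM of 6 members in the 3 libraries of each group (points), with the mean (line) and SD (bar), and axes that start at 0. The upper left and upper middle panels show genes whose copper-free ∆ArAceA level was near that of WT, the upper right and lower left panels genes in which it lay between the WT levels, and the lower middle and lower right panels genes in which it lay above the WT copper level.

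In the 16 members of the middle class ∆ArAceA without copper stood part of the way up the WT response. The pair with consecutive identifiers, M433DRAFT_145585 and M433DRAFT_145584, had the largest WT responses of this class, 3.27 and 2.17, and low levels throughout. The levels of M433DRAFT_145585 were 1.57, 4.83 and 5.07 FPKM in the ∆ArAceA libraries with copper and 4.43, 4.75 and 2.1 FPKM in those without, and 15.2, 9.97 and 10.99 FPKM in the WT libraries with copper and 0, 0 and 1.06 FPKM in those without. With copper-free WT this near 0, the WT response of this gene depends on the value of 1 added to FPKM. The authors' own log2 ratio for it was 0.93. For M433DRAFT_145584 the ∆ArAceA libraries gave 4.76, 5.08 and 7.01 FPKM with copper and 4.69, 6.02 and 7.28 FPKM without it, whereas the WT libraries gave 12.1, 16.9 and 15.3 FPKM with copper and 4.03, 2.62 and 0.86 FPKM without it. In both genes the ∆ArAceA libraries with and without copper overlapped, all of them lay above the WT libraries without copper, and all below the WT libraries with copper. Whether the genes neighbour each other on the genome was not analysed here.

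Several members of this class were abundant. M433DRAFT_64840 had 284, 284 and 307 FPKM in ∆ArAceA with copper and 282, 280.2 and 256 FPKM in ∆ArAceA without copper, against 483, 508 and 466 FPKM in copper-treated WT and 154, 114 and 123 FPKM in copper-free WT. The levels of M433DRAFT_135144 were 174, 167 and 167 FPKM in the ∆ArAceA libraries with copper and 235, 244 and 231 FPKM in those without, and 499.9, 493 and 428 FPKM in the WT libraries with copper and 158, 145 and 165 FPKM in those without. For M433DRAFT_75112 the ∆ArAceA libraries gave 134, 121 and 138 FPKM with copper and 81.8, 80.3 and 86.5 FPKM without it, whereas the WT libraries gave 158, 171 and 167 FPKM with copper and 50.7, 42.3 and 36.4 FPKM without it. The first of these genes had nearly the same level in ∆ArAceA with and without copper, at a response of 0.096, the second was lower with copper there, at -0.48, and the third was higher, at 0.65. In all 3 the ∆ArAceA copper libraries lay below the WT copper libraries, and the copper-free ∆ArAceA libraries above the copper-free WT ones. For M433DRAFT_71428 the ∆ArAceA libraries gave 798, 773 and 897 FPKM with copper and 1001, 909.95 and 803 FPKM without it, whereas the WT libraries gave 1069, 1042 and 1091 FPKM with copper and 510.4, 388 and 586 FPKM without it. This was the most abundant member, and its copper-free ∆ArAceA libraries spread from 803 to 1001 FPKM, overlapping with those with copper. M433DRAFT_6593 averaged 241 ± 19.9 and 170.2 ± 8.78 FPKM in ∆ArAceA with and without copper, against 379 ± 12.6 FPKM in copper-treated WT and 119 ± 24.03 FPKM in copper-free WT. The means of M433DRAFT_156500 were 412 ± 19.3 and 399.95 ± 31.04 FPKM with and without copper in ∆ArAceA, and those in WT were 509.7 ± 17.6 FPKM with copper and 228 ± 15.8 FPKM without it. Both had copper means in ∆ArAceA below those in WT with no overlap between libraries.

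M433DRAFT_155874 had 48.03, 47.1 and 50.6 FPKM in ∆ArAceA with copper and 37.8, 37.5 and 37.3 FPKM in ∆ArAceA without copper, against 52.8, 50.3 and 46.2 FPKM in copper-treated WT and 18.3, 15.6 and 16.2 FPKM in copper-free WT. With copper the genotypes overlapped, and what differed was the copper-free level, 2.25-fold higher in ∆ArAceA by the means. The means of M433DRAFT_67879 were 91.02 ± 2.28 and 67.6 ± 1.58 FPKM with and without copper in ∆ArAceA, and those in WT were 102 ± 5.98 FPKM with copper and 47.8 ± 3.01 FPKM without it. M433DRAFT_155575 averaged 18.1 ± 0.396 and 12.7 ± 1.27 FPKM in ∆ArAceA with and without copper, against 19.6 ± 1.98 FPKM in copper-treated WT and 9.01 ± 1.07 FPKM in copper-free WT. These genes had 0.42 and 0.47 as responses in ∆ArAceA, so that the response there was smaller than in WT without being absent. Low levels marked the remaining 5 members of the class. M433DRAFT_149657 averaged 2.21 ± 0.387 and 3.13 ± 0.987 FPKM in ∆ArAceA with and without copper, against 8.097 ± 0.935 FPKM in copper-treated WT and 2.06 ± 0.523 FPKM in copper-free WT. The means of M433DRAFT_464175 were 1.65 ± 0.5 and 2.997 ± 1.07 FPKM with and without copper in ∆ArAceA, and those in WT were 5.09 ± 0.742 FPKM with copper and 1.79 ± 0.652 FPKM without it. Both were lower with copper than without it in ∆ArAceA by the means, at -0.37 and -0.59, the libraries overlapping in the first and not in the second. M433DRAFT_49465 averaged 3.78 ± 0.652 and 4.15 ± 1.02 FPKM in ∆ArAceA with and without copper, against 5.98 ± 0.773 FPKM in copper-treated WT and 1.45 ± 0.335 FPKM in copper-free WT. The means of M433DRAFT_74951 were 5.88 ± 0.662 and 3.69 ± 0.317 FPKM with and without copper in ∆ArAceA, and those in WT were 5.17 ± 0.426 FPKM with copper and 1.52 ± 0.533 FPKM without it. M433DRAFT_166471 averaged 6.59 ± 0.167 and 3.81 ± 0.165 FPKM in ∆ArAceA with and without copper, against 4.46 ± 0.136 FPKM in copper-treated WT and 1.54 ± 0.0643 FPKM in copper-free WT. The last 2 of these had their highest mean in ∆ArAceA with copper, and the first in WT with copper.

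In the 11 members of the third class the copper-free deletion strain exceeded even the copper-treated wild type by the group means. The libraries of these groups overlapped in M433DRAFT_27164, M433DRAFT_456633 and M433DRAFT_429495. M433DRAFT_65154 had 171, 164 and 179.6 FPKM in ∆ArAceA with copper and 419, 380.1 and 345 FPKM in ∆ArAceA without copper, against 177, 164 and 138 FPKM in copper-treated WT and 68.9, 66.9 and 72.05 FPKM in copper-free WT. The levels of M433DRAFT_153986 were 24.8, 19.6 and 19.3 FPKM in the ∆ArAceA libraries with copper and 53.6, 53.8 and 60.5 FPKM in those without, and 22.8, 20.4 and 15.3 FPKM in the WT libraries with copper and 6.82, 6.08 and 8.09 FPKM in those without. In both genes copper-free ∆ArAceA had the 3 highest of the 12 libraries, copper-treated ∆ArAceA overlapped with copper-treated WT, and copper-free WT was lowest. Between copper-free means ∆ArAceA was 5.505-fold higher for M433DRAFT_65154 and 8.004-fold higher for M433DRAFT_153986. M433DRAFT_151605 averaged 38.9 ± 3.48 and 106 ± 9.04 FPKM in ∆ArAceA with and without copper, against 62.8 ± 3.51 FPKM in copper-treated WT and 30.9 ± 4.41 FPKM in copper-free WT. Its copper libraries in ∆ArAceA lay below those in WT and above the copper-free ones of WT, so copper-free ∆ArAceA stood alone at the top. The means of M433DRAFT_27164 were 42 ± 2.96 and 56.9 ± 4.71 FPKM with and without copper in ∆ArAceA, and those in WT were 48.4 ± 8.92 FPKM with copper and 21.9 ± 2.03 FPKM without it. For M433DRAFT_140010 the ∆ArAceA libraries gave 22.04, 21.7 and 23.5 FPKM with copper and 28.97, 26.5 and 29.6 FPKM without it, whereas the WT libraries gave 20.3, 15.8 and 14.4 FPKM with copper and 7.24, 6.46 and 7.71 FPKM without it. In these 2 genes as well the ∆ArAceA libraries with copper lay below those without, with responses of -0.43 and -0.33.

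A further 4 genes of this class were high in ∆ArAceA under both conditions. For M433DRAFT_428806 the ∆ArAceA libraries gave 36.9, 34.5 and 38.4 FPKM with copper and 30.7, 28.6 and 23.6 FPKM without it, whereas the WT libraries gave 19.1, 14.9 and 19.4 FPKM with copper and 6.82, 7.72 and 6.97 FPKM without it. Every ∆ArAceA library lay above every WT library, and copper went with a higher level in both genotypes, with a response of 0.39 in ∆ArAceA and 1.204 in WT. M433DRAFT_386443 had 53.5, 49.04 and 53.96 FPKM in ∆ArAceA with copper and 53.2, 49.4 and 53.2 FPKM in ∆ArAceA without copper, against 40.2, 35.4 and 34.1 FPKM in copper-treated WT and 11.1, 19.6 and 16.6 FPKM in copper-free WT. The ∆ArAceA groups overlapped here, with a response of 0.0059. M433DRAFT_152199 averaged 21.5 ± 2.01 and 17.4 ± 0.689 FPKM in ∆ArAceA with and without copper, against 14.3 ± 0.804 FPKM in copper-treated WT and 6.22 ± 1.11 FPKM in copper-free WT. The means of M433DRAFT_456633 were 7.36 ± 0.685 and 6.51 ± 1.37 FPKM with and without copper in ∆ArAceA, and those in WT were 5.12 ± 0.411 FPKM with copper and 1.697 ± 0.332 FPKM without it. For M433DRAFT_152199 all 6 ∆ArAceA libraries again exceeded all 6 WT libraries, and for M433DRAFT_456633 the lowest copper-free ∆ArAceA library, of 5.08 FPKM, lay within the range of the WT copper libraries.

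The last 2 members of the class were near the floor of the measurement. M433DRAFT_27941 had 1.33, 0 and 3.2 FPKM in ∆ArAceA with copper and 6.96, 9.45 and 7.95 FPKM in ∆ArAceA without copper, against 4.59, 4.35 and 1.62 FPKM in WT with copper, and it was listed at 0 in all 3 libraries of WT without copper. Its level was low, its copper libraries overlapped between the genotypes, and no ratio to copper-free WT can be formed. The levels of M433DRAFT_429495 were 0, 0 and 3.82 FPKM in the ∆ArAceA libraries with copper and 1.77, 8.02 and 11.4 FPKM in those without, and 9.11, 8.2 and 3.38 FPKM in the WT libraries with copper and 4.97, 0 and 2.69 FPKM in those without. Its groups overlapped in every comparison, which makes it the only member whose WT copper libraries did not all exceed the WT copper-free ones.

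Seen as genotype differences, most members were higher in ∆ArAceA without copper and lower with it. The log2 difference of ∆ArAceA from WT was above 0 in 31 of 35 members without copper, with a median of 0.92, and below 0 in 26 of 35 with copper, with a median of -0.55. Over the genes tested both medians were 0.12. In the libraries, ∆ArAceA lay above WT without overlap in 25 members and below in 1 without copper (42.8% and 19.3% of the genes tested), and above in 6 and below in 20 with copper (43.1% and 15.2% of the genes tested). Each of these differences shares its libraries with the responses that chose the members. A large response in WT together with a small one in ∆ArAceA pushes the first difference up and the second down, so the counts are a description and carry no test. With copper the differences ran from -5.12 for M433DRAFT_310551 and -2.47 for M433DRAFT_348929 up to 0.998 for M433DRAFT_428806, and without copper from -0.50 for M433DRAFT_391355 up to 3.19 for M433DRAFT_27941.

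**Figure D4:**
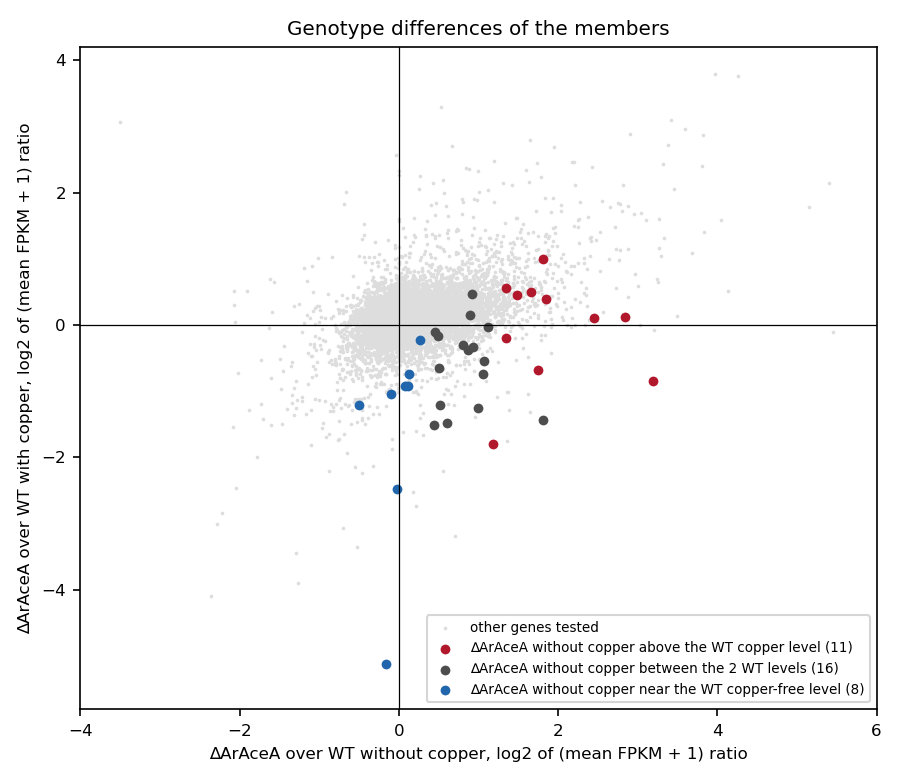
Log2 difference of ∆ArAceA from WT (ratio of mean FPKM + 1) without copper (horizontal) and with copper (vertical), for the members, coloured by the position of copper-free ∆ArAceA, and for the other genes tested (grey). Members lie mostly at the lower right, with M433DRAFT_310551 at the bottom, at -5.12 with copper.

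The difference between the genotypes averaged over both copper conditions is orthogonal to both copper responses where the groups have equal spread. It is not independent of the condition on the highest group mean, which 29 members met in both genotypes, 2 in ∆ArAceA only and 4 in WT only. It was tested with limma's moderated test on log2(FPKM + 1) over all 8741 genes, with Benjamini-Hochberg adjustment, and all 35 members were among them. Of the members 19 were called higher in ∆ArAceA (54.3%), 9 lower (25.7%) and 7 were not called at an adjusted p under 0.05. Over all genes tested 45.8% were called higher and 14.6% lower, so calls in either direction were common in the table as a whole. A call can come from 1 copper condition alone. Copper-treated WT, which the rule asked to be raised, had the highest mean in 16 of the 28 called members. The share over all genes was not counted. The class near the copper-free WT level held 7 of the 9 members called lower. The median genotype difference of that class was 0.028 without copper and -0.99 with it. The median average difference was 0.18 over the members and 0.12 over all genes. That shift of all genes depends on the scaling of the libraries. After median-of-ratios scaling, which sets the median gene near 0, 14 members were called higher and 10 lower (30.9% and 31.6% of the genes tested). Among the 29 members that reached 5 FPKM in both genotypes, a count added after seeing the data, 17 were called higher, 8 lower and 4 were not called. The members thus had no common direction in this measure.

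M433DRAFT_310551 had the most negative average difference of the members, -2.65 (SE 0.0525, adjusted p = 4.20e-13), and all 6 ∆ArAceA libraries lay below all 6 WT libraries, as in 3.81% of the genes tested. Without copper that separation was narrow, with at most 14.8 FPKM in ∆ArAceA and at least 15.2 FPKM in WT. M433DRAFT_348929 followed with -1.25 (SE 0.0425, adjusted p = 4.09e-11) and M433DRAFT_391355 with -0.83 (SE 0.139, adjusted p = 2.69e-04). In both, the 6 libraries of each genotype overlapped, and the ∆ArAceA copper libraries were below the WT copper libraries in 3 of 3. For M433DRAFT_310551, M433DRAFT_348929 and M433DRAFT_391355 the log2 differences were -0.17, -0.022 and -0.50 without copper. With copper they were -5.12, -2.47 and -1.21. The averages of these genes came mostly from the copper condition, where the rule had asked for a raised WT level. Their calls are therefore not separate from the choice of members. At the other end, M433DRAFT_153986 had 1.48 (SE 0.0994, adjusted p = 8.08e-08), M433DRAFT_428806 had 1.40 (SE 0.0745, adjusted p = 3.31e-09), M433DRAFT_65154 had 1.27 (SE 0.0609, adjusted p = 1.97e-09) and M433DRAFT_140010 had 1.13 (SE 0.0724, adjusted p = 1.82e-08). In M433DRAFT_153986 and M433DRAFT_65154 the ∆ArAceA libraries lay above the WT libraries in 3 of 3 without copper and overlapped with them with copper. All 6 ∆ArAceA libraries lay above all 6 WT libraries in M433DRAFT_428806, M433DRAFT_140010, M433DRAFT_386443 and M433DRAFT_152199, as in 17.4% of the genes tested. The other 15 members called higher lay between 0.17 and 1.10, and the other 6 called lower between -0.58 and -0.29. Among these, M433DRAFT_27941 and M433DRAFT_166471 reached 5 FPKM in ∆ArAceA only and M433DRAFT_149657 in WT only, so the direction of their difference follows in part from the choice of members. Of the 15, 5 were not called after median-of-ratios scaling. The members not called included the pair M433DRAFT_145585, with 0.17 (SE 0.282, adjusted p = 0.635), and M433DRAFT_145584, with -0.08 (SE 0.219, adjusted p = 0.775), whose confidence intervals reached from -0.46 to 0.80 and from -0.57 to 0.41.

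**Figure D5:**
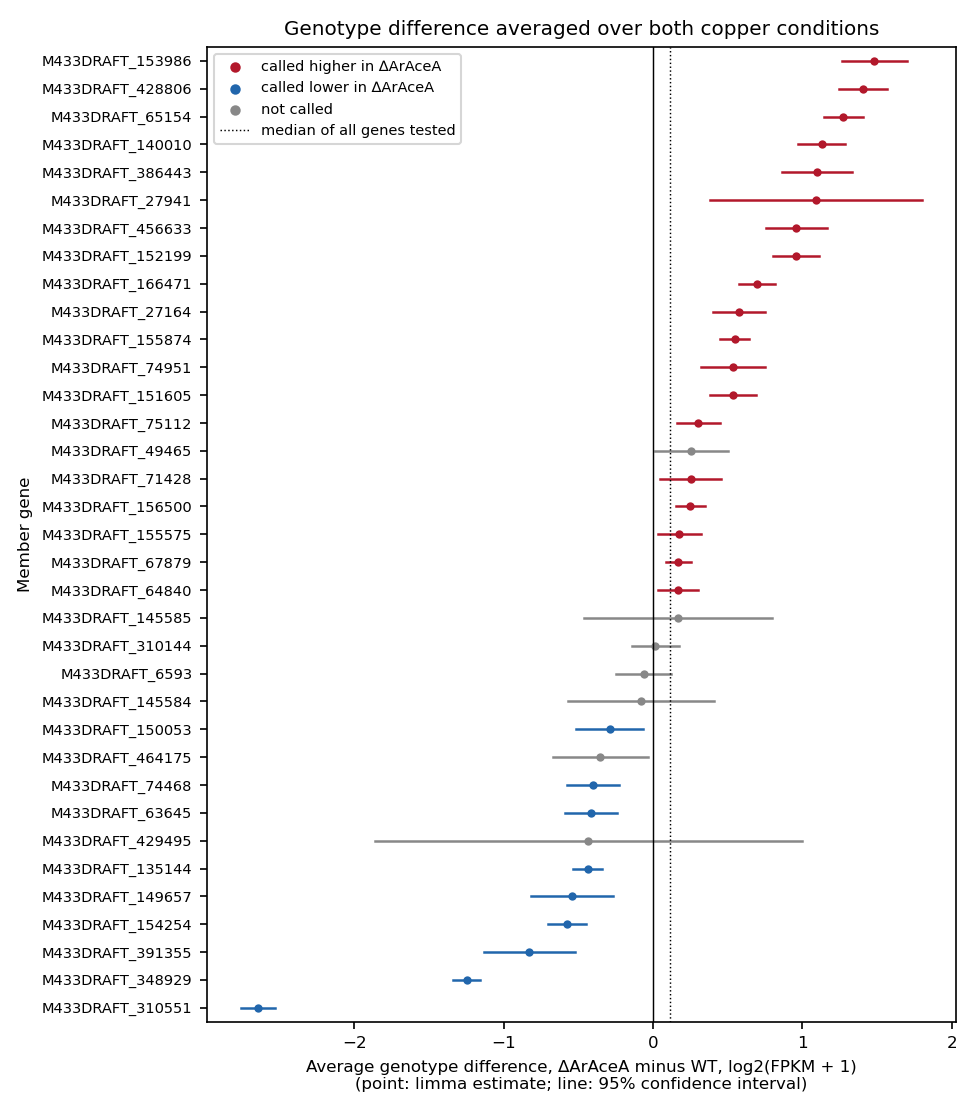
Difference of ∆ArAceA from WT averaged over both copper conditions for each member, on the log2(FPKM + 1) scale (point: limma estimate; line: 95% confidence interval; 6 libraries per genotype). Called members are red where higher in ∆ArAceA and blue where lower. The dotted line is the median of all genes tested, 0.12, and estimates run from 1.48 for M433DRAFT_153986 down to -2.65 for M433DRAFT_310551.

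For comparison, 55 genes met the same conditions in WT and on level but had a response of 0.7 or more in ∆ArAceA. Of these 36 were called higher in ∆ArAceA in the average difference (65.5%), 5 lower (9.09%) and 14 were not called, with a median of 0.63 against 0.18 in the members. The difference between the lists was not tested.

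The responses were also read in libraries that had no part in choosing genes. The same rule was applied to the libraries of 2 replicate numbers, and the responses were then taken from the third. With replicate 1 held out, 36 genes were chosen, with replicate 2 held out 32, and with replicate 3 held out 43, of which 31, 28 and 34 were among the 35 members. In the held-out libraries the median WT response of the chosen genes was 1.22, 1.57 and 1.12, in the order of replicates, and the median ∆ArAceA response was 0.045, 0.23 and 0.16. The WT response exceeded the ∆ArAceA response in 36 of 36, 31 of 32 and 41 of 43 genes. Both conditions of the rule on the responses were met anew by 21, 23 and 22 genes, so part of each list crossed a limit when read from single libraries. Over all genes tested, medians in the held-out libraries lay between -0.055 and 0.019. The matching shares of all genes were not counted, so the counts of chosen genes serve as a description only.

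Leaving out any 1 of the 12 libraries kept 23 of the 35 members in every case. The member lost most often was M433DRAFT_151605, kept in 9 of 12, followed by M433DRAFT_429495 and M433DRAFT_155575, kept in 10. The median residual SD between replicates was 0.15 for the members on the log2(FPKM + 1) scale, against 0.095 over the genes tested, at median levels over the 12 libraries of 25.9 FPKM and 20.7 FPKM. The 55 genes that copper raised in both genotypes also had a median residual SD of 0.15, so this spread was not particular to the members. The difference in spread from all genes was not tested.

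The authors' deposited table gives log2 ratios of its own for the same group comparisons. They come from the same 12 libraries that chose the members. The counts for copper below therefore follow largely from the choice and give no independent evidence. In the authors' deposited table the log2 ratio of WT with copper over WT without was at least 1 for 30 of the members, against 1.36% of the genes tested, with a median of 1.26. Below 1 in the authors' deposited table were M433DRAFT_145585 at 0.93, M433DRAFT_153986 at 0.88, M433DRAFT_151605 at 0.74, M433DRAFT_391355 at 0.62 and M433DRAFT_429495 at 0.34. For ∆ArAceA with copper over ∆ArAceA without, the authors' deposited table had a median of 0.11 and a highest value of 0.82 over the members, so 0 of 35 reached 1, against 2.3% of the genes tested. For copper in WT the authors' deposited table had 0.93 for M433DRAFT_145585 and 3.63 for M433DRAFT_27941, whereas the means of FPKM + 1 gave 3.27 and 2.18.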

How the data were processed

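RNA of 12 mycelium libraries was sequenced, 3 in each of 4 groups taken from the sample titles. The submitters' processing notes name the tools HISAT2 (2.1.0), RSEM (1.2.8) and, without a version, DESeq2, and say nothing of what each did. Genome build, annotation, strand and read depth are not given in the sources used here. Values were deposited by the authors as FPKM per library, equal in the series table and the 12 library files, 0 columns staying unmapped. The authors' deposited table also holds log2 ratios, and Q values (p-values adjusted by the authors) that were not used.

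Members were chosen by the rule given in the report. In R 4.3.3, limma 3.58.1 with robust moderation and a mean-variance trend was fitted to log2(FPKM + 1) of the 4 groups, for genes with at least 1 FPKM in at least 3 libraries. This kept 8741 genes and dropped 1302. Tests were two-sided. The fit was also run on simulated normal values with the levels and spreads of the real genes. Such values match what the fit assumes, so the run does not probe counting error, and no result above rests on it. Apart from that run, adding 1 to FPKM makes the fitted changes of low genes smaller than their FPKM ratios.

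Since the values are FPKM, the count test was not used. The rule for named genes took the 12 largest WT responses, then 4 each by WT copper level, lowest ∆ArAceA response, average difference in either direction and copper-free ∆ArAceA level. It named 31 members, and the other 4 were named to account for all. The members and lists were chosen with earlier results of these data known. Lists by product and promoter motifs were not run, since no annotation or promoter sequence was used here.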

Additional observations from a re-analysis of the deposited data

Results flagged for a closer look

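In 9 members all 3 WT libraries with copper lay above all 3 without, while all 3 ∆ArAceA libraries with copper lay below all 3 without. The rule asked only for a response under 0.7 in ∆ArAceA, so a lower level there was not required, but the difference itself follows in part from the choice and was not tested. The differences of the copper responses, ∆ArAceA minus WT, were fitted with limma to the log2(FPKM + 1) values of single libraries, so they differ slightly from differences between group means. They were -4.96 for M433DRAFT_310551, -4.18 for M433DRAFT_27941, -2.71 for M433DRAFT_153986, -2.42 for M433DRAFT_151605, -2.33 for M433DRAFT_65154, -2.07 for M433DRAFT_135144, -1.72 for M433DRAFT_464175, -1.53 for M433DRAFT_27164 and -1.45 for M433DRAFT_140010. The value of M433DRAFT_27941 depends on the pseudocount, since copper-free WT was listed at 0. Over the genes tested, copper libraries lay wholly above in WT in 16.4% and wholly below in ∆ArAceA in 36.1%. The share of genes with both together was not counted, so nothing particular to the members is read from the 9. In M433DRAFT_310551 the separation in ∆ArAceA was narrow, with 10.6 to 12.9 FPKM with copper and 13.2 to 14.8 FPKM without it.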

How the results depend on the processing

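The number of members was 13 with a WT response of at least 1.5 and 23 with a ∆ArAceA response under 0.35, both subsets of the 35 by construction. It was 46 with a pseudocount of 0.1, 35 and 34 after median-of-ratios and upper-quartile scaling, 27 with a highest group mean of at least 10 FPKM, and 31 to 43 when single libraries or replicate numbers were left out. Of the 46 genes 33 were among the 35 members, as were 33 of the 34 and all after median-of-ratios scaling. Held-out median responses ran from 1.12 to 1.57 in WT and from 0.045 to 0.23 in ∆ArAceA. Members called higher in the average genotype difference numbered 14 to 20 and those called lower 8 to 10 over all alternatives, leaving out single libraries included, and leaving out the 6 members that reach 5 FPKM in 1 genotype only. Among single members, the sign turned only in genes that were not called. M433DRAFT_310144 stood at 0.017 and turned to -0.11 and -0.10 under median-of-ratios and upper-quartile scaling and to between -0.026 and 0.059 without single libraries, M433DRAFT_145584 turned to 0.028 with a pseudocount of 0.1 and ranged from -0.28 to 0.079 without single libraries, and M433DRAFT_6593 ranged from -0.14 to 0.0036. Median-of-ratios scaling ended the calls of M433DRAFT_64840, M433DRAFT_156500, M433DRAFT_71428, M433DRAFT_67879 and M433DRAFT_155575, all under 0.26 as deposited. Leaving out 1 library ended between 1 and 4 of the 28 calls, whichever of the 12 it was, always among M433DRAFT_150053, M433DRAFT_64840, M433DRAFT_71428 and M433DRAFT_155575, and it called M433DRAFT_49465, M433DRAFT_464175 or, without WT replicate 2, M433DRAFT_6593 in addition. With the replicate number as a block 20 members were called higher and 9 lower, M433DRAFT_49465 being added. Same-numbered libraries of different groups deviated together at r = -0.17 to 0.066, and differently numbered ones at -0.099 to 0.22. No pairing by number was seen, though this cannot show whether cultures were handled together. Depth is unknown and limits members near 0 FPKM most.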
